A study of Macaca mulatta with 35 samples.

Results

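RNA of rhesus monkey (Macaca mulatta) oocytes was compared with RNA of granulosa cells from the same classes of antral follicle, those with a fluid-filled cavity. All libraries labelled as oocytes or as granulosa cells were taken, which gave 24 of the 35 libraries of the series: 12 of oocytes and 12 of granulosa cells. Each cell type had 4 libraries from small, 4 from medium and 4 from large follicles, so that 6 groups entered the contrast. The 11 cumulus libraries were kept out of it. The ovaries came from adult females at necropsy, and no treatment or genotype is given that separated the groups. The cell types were isolated from single follicles, per the labels, which call the second cell type granulosa cells and do not name the animal, the follicle diameter in numbers or the purity of a sample. The series asks how expression in these cells differs as antral follicles grow. The contrast read here asks how oocytes differ from granulosa cells averaged over the sizes, and whether that difference is found in each size. Libraries are named by cell type, size and the number in their title.

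The oocyte is the germ cell of the follicle. During growth it stores large amounts of maternal RNA, which serve the completion of meiosis and the first embryonic divisions, and it secretes growth factors that act on the surrounding somatic cells. Granulosa cells line the follicle wall. They divide, respond to follicle-stimulating hormone and convert androgens to oestrogens. The zona pellucida proteins are textbook products of the oocyte, and aromatase and the follicle-stimulating hormone receptor are textbook products of granulosa cells.

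The measured features were 49537 transcripts, each with an Ensembl transcript ID. None of these IDs (0 of 49537) matched the tables of gene names used here, and the files do not pair them with genes. The level of the marker genes of either cell type, and of theca, immune, blood or stromal cells, was therefore not analysed here. The labels were set against the data only by how alike the libraries were. Across transcripts, the Spearman correlation between 2 libraries was 0.738 to 0.897 over the 66 pairs of oocyte libraries (median 0.841). It was 0.704 to 0.882 over the 66 pairs of granulosa libraries (median 0.806) and 0.415 to 0.655 over the 144 pairs of an oocyte with a granulosa library (median 0.515). Every pair within a cell type was thus more alike than every pair across cell types. These correlations describe libraries over the same transcripts and carry no test.

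Total estimated counts were 20780330 to 52350330 in oocytes and 22067128 to 33772605 in granulosa cells, and the means did not differ beyond their spread (two-sided permutation test, p = 0.909). Oocytes had 25933 ± 1446 transcripts with at least 10 counts (SD, n = 12) and granulosa cells 25483 ± 1562 (SD, n = 12; permutation p = 0.475). A total count is set by sequencing and not by the RNA of a cell, so all levels here are shares of a library, and fewer cells of a type cannot be told apart from less RNA per cell. The RNA was amplified before sequencing, so that counting error understates the error of a value. 4 libraries stood apart. Oocyte medium 2 held the highest total and the largest share of counts in 1 transcript among the 24, at 44.8%. Oocyte large 2 was the least like its own cell type, with a median Spearman correlation of 0.746 with the other oocyte libraries, where each of the others had at least 0.827. It also had the fewest oocyte transcripts with at least 10 counts, 22229, and the largest share of counts in transcripts over 5000 bases, 19.4%. Without it the averaged contrast described below called 22948 transcripts and that in large follicles 11442. Granulosa medium 4 and granulosa large 1 held more of the transcripts that were high in oocytes than the other 10 granulosa libraries did, and results that rest on them are given with and without them. The labels do not say whether libraries with the same number share an animal, so that p-values rest on the variation among these libraries, part of which may be technical. Libraries of 1 cell type with the same number deviated together across sizes in part, with correlations of 0.0999 to 0.394 in granulosa cells and 0.0253 to 0.242 in oocytes over 12 pairs each, so the 12 libraries of a cell type are not fully independent. With counts summed over the sizes per cell type and number, 4 sums against 4, edgeR's quasi-likelihood test called 17029 of 33631 transcripts. They included 16599 (74.0%) of the 22432 calls of the averaged contrast described below.

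Of 34410 transcripts that passed the filter on low counts, 22432 (65.2%) differed between oocytes and granulosa cells when averaged over the sizes (edgeR quasi-likelihood test, Benjamini-Hochberg adjusted p under 0.05). Of the tested transcripts, 10515 (30.6%) were higher in oocytes and 11917 (34.6%) were lower. The differences were large. Of those called, 14617 (42.5% of the tested) differed by more than 4-fold, 6945 higher and 7672 lower in oocytes. At more than 16-fold there were 3470 higher and 2524 lower, and at more than 64-fold 1559 and 754. More transcripts were thus lower than higher among the calls, while the largest differences were more often higher in oocytes. Tested directly against a difference of 4-fold with edgeR's glmTreat, 9124 transcripts (26.5%) were called, 4859 higher and 4265 lower.

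The balance of higher and lower rests on how libraries are scaled. The TMM factors used here assume that most transcripts do not differ, which does not hold for a contrast in which 65.2% were called. The median log2 difference over the tested transcripts was -0.23 with TMM and 0.26 with library totals alone. With totals alone 12447 transcripts were higher and 9120 lower in oocytes, so that 57.7% of the calls were higher, against 46.9% with TMM. The same change of scaling moved the calls that were higher in oocytes from 51.4% to 64.8% in small follicles, from 51.3% to 63.1% in medium and from 52.8% to 69.2% in large. Of the transcripts called with TMM, 19635 (87.5%) were also called with totals alone, all in the same direction. Of the 3151 tested transcripts whose estimated counts were whole numbers in all 24 libraries, so that they show no fraction of a read shared with another transcript, 2553 were called, 1514 higher and 1039 lower.

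**Figure D1:**
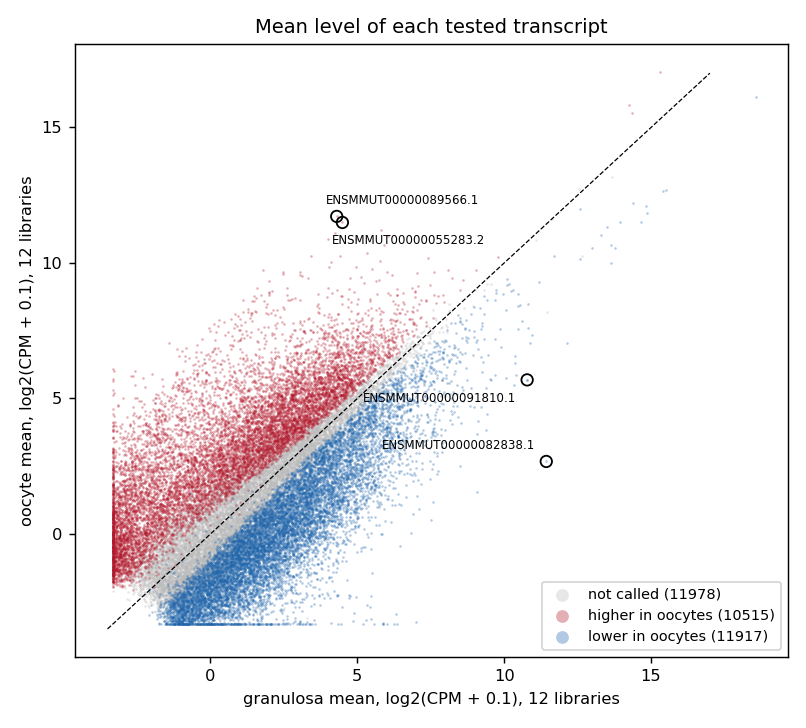
Mean level of each of the 34410 tested transcripts in the 12 granulosa libraries (horizontal axis) and the 12 oocyte libraries (vertical axis), both as log2 of CPM (counts scaled to TMM-adjusted library totals) plus 0.1. Red points were higher in oocytes (10515), blue points lower (11917) and grey points were not called, the dashed line marks equal levels, and circles mark the 4 transcripts described by name. Called transcripts lie on both sides at all levels, and the rows of points at the left and lower edges are transcripts with a mean near 0 in 1 of the cell types.

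The lowest oocyte library exceeded the highest granulosa library in 4171 transcripts (12.1% of the tested), and the reverse held in 2883 (8.38%). All of them were among the calls. Of the 4171, 2378 had counts above 0 in all 12 granulosa libraries, so that for these the libraries differed in level and not in presence. Whether those counts came from the granulosa cells themselves was not tested. Failure to call did not show equality. Of the 11978 transcripts not called, 2191 had a 95% confidence interval that lay within 2-fold in either direction, and 9787 had one that reached past 2-fold. The median standard error of the log2 difference was 0.58.

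The direction of the difference varied with the level of a transcript. Among 10017 transcripts with a mean under 1 CPM, 21.6% were higher and 31.3% lower in oocytes. Among 7778 at 10 to 100 CPM, 45.9% were higher and 31.9% lower. Of the 38 transcripts at 1000 CPM or more, 9 were higher and 23 lower, with a median log2 difference of -2.30. The most abundant class thus leaned to granulosa cells and the middle class to oocytes.

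The way in which counts were spread over transcripts differed between the cell types. Granulosa RNA was more concentrated. The top transcript of a library held 14.4 ± 10.41% of oocyte counts and 31.0 ± 6.61% of granulosa counts (SD, n = 12 each; permutation test, adjusted p = 0.00125). The top 100 transcripts held 50.2 ± 9.30% and 71.4 ± 4.68% (n = 12 each; permutation test, adjusted p = 0.0002). The first 50% of counts lay in 145 ± 91.9 transcripts in oocytes (SD, n = 12; range 2 to 271) and in 7.33 ± 2.84 in granulosa cells (SD, n = 12; range 3 to 11; permutation test, adjusted p = 0.00024). The ranges overlapped because oocyte medium 2, with 2 such transcripts, lay below all granulosa libraries, and oocyte small 2, with 11, equalled the highest of them. These tests were two-sided with 100000 resamples and adjusted over 40 tests of 10 measures, averaged and within each size. They treat the 12 libraries of a cell type as independent, which they are not fully. With each measure averaged over the sizes per cell type and number, 4 values stood against 4. Each measure of this paragraph and the next then had adjusted p = 0.0357 (permutation test). Its unadjusted p was 0.0286, the lowest that 4 against 4 can give.

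Granulosa counts also lay in shorter transcripts. Transcripts under 1000 bases held 13.9 ± 1.58% of oocyte counts and 43.8 ± 7.63% of granulosa counts (SD, n = 12 each), with ranges of 11.73 to 16.04% and 32.2 to 56.1% that did not overlap (permutation test, adjusted p = 0.0002). The length at which counts reached their median was 1841 ± 254 bases in oocytes and 1219 ± 260 bases in granulosa cells (SD, n = 12 each; permutation test, adjusted p = 0.0002). Transcripts over 5000 bases held 13.6 ± 2.98% and 9.54 ± 1.43% (n = 12 each; permutation test, adjusted p = 0.00125). A few abundant transcripts weighed on these differences, some of which shrank and others grew without them. Without the 4 most abundant transcripts the oocyte minus granulosa difference went from -29.9 to -12.2 percentage points for the share under 1000 bases and from -16.7 to -5.69 for the top transcript. It went from 137 to 778 for the number of transcripts that hold the first 50% of counts, from 622 to 1044 bases for the median length, and from -17.8 to -26.3 percentage points for the top 10. Directions were the same and all these tests kept their side of the threshold. Within a size, 4 libraries against 4 can give no exact permutation p under 0.0286, and no adjusted p of these within-size tests was under 0.05 (lowest 0.0544).

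**Figure D2:**
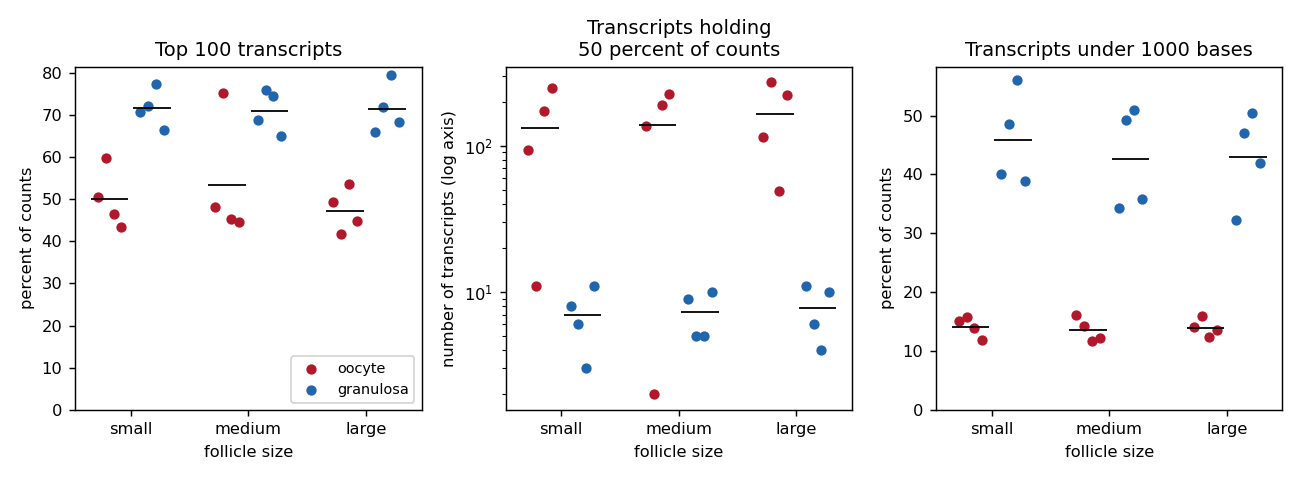
Spread of counts over transcripts in each oocyte (red) and granulosa (blue) library by follicle size, 4 libraries a group, with the group mean as a bar. The panels give the percent of counts in the top 100 transcripts, the number of transcripts that hold the first 50% of counts on a log axis, and the percent of counts in transcripts under 1000 bases, where the oocyte libraries lie at 11.73 to 16.04% and the granulosa libraries at 32.2 to 56.1%. The oocyte medium library at 75.2% in the left panel and at 2 transcripts in the middle panel is oocyte medium 2.

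Counted one by one instead of by their share of counts, transcripts showed the opposite relation with length. Those higher in oocytes had a median length of 2375 bases and those lower one of 2677 bases, against 2510 bases over all tested. Under 1000 bases 38.7% of 2383 transcripts were higher in oocytes and 28.7% lower, and at 8000 bases or more 24% of 829 were higher and 39.1% lower. Among transcripts with whole counts the higher share went the same way over the first 4 length classes, from 51.8% under 1000 bases to 49.0%, 44.4% and 42.3% in the next 3 classes, up to 8000 bases. The median log2 difference there went from 1.05 to 0.71, 0.29 and 0.10. The class at 8000 bases or more, with 71 such transcripts, broke the order at 54.9% and 1.68.

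4 transcripts are described by name, those with the largest difference in mean CPM among transcripts called in the average and in the same direction in each size, over 16-fold and without overlap between the cell types. Since the IDs carry no gene name, 2 were taken in each direction. None of them had whole counts in every library. Because the choice used this contrast, their values are a description.

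ENSMMUT00000089566.1, a transcript of 3334 bases, had 1932 to 4716 CPM in oocytes (median 3473) and 0.973 to 170.9 CPM in granulosa cells (median 4.55). The means were 3365 ± 870 and 19.6 ± 47.9 CPM (SD, n = 12 each). The 12 oocyte libraries lay close together, while granulosa large 1 at 170.9 CPM stood far above the next granulosa library, medium 4 at 18.3 CPM. The log2 difference was 8.05 (SE 0.80, edgeR adjusted p = 3.96e-08). By size it was 9.25 in small, 8.77 in medium and 6.12 in large follicles. It was 9.35 without granulosa large 1 and 9.75 without granulosa medium 4 and large 1.

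ENSMMUT00000055283.2, of 1002 bases, followed the same order. It had 1737 to 4460 CPM in oocytes (median 2964) and 2.76 to 181.4 CPM in granulosa cells (median 4.62), again with granulosa large 1 the highest and medium 4 next at 29.0 CPM. The means were 2882 ± 835 and 22.4 ± 50.7 CPM (SD, n = 12 each), a log2 difference of 7.60 (SE 0.70, edgeR adjusted p = 1.21e-08). The difference was 9.15, 7.96 and 5.69 in small, medium and large follicles, 8.72 on average without granulosa large 1 and 9.12 without both of these granulosa libraries. Per length, the deposited TPM averaged 5501 ± 1335 for ENSMMUT00000055283.2 and 1662 ± 423 for ENSMMUT00000089566.1 in the 12 oocyte libraries, so the shorter transcript was the more abundant on that scale.

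ENSMMUT00000082838.1, of 531 bases, was high in granulosa cells and varied most there. It had 1.79 to 9.55 CPM in oocytes (median 6.93) and 34.5 to 22336 CPM in granulosa cells (median 560). The highest values were 22336 CPM in granulosa small 2 and 5132 CPM in granulosa medium 2, and all other granulosa libraries were at 1573 CPM or less. The means were 6.30 ± 2.49 and 2763 ± 6325 CPM (SD, n = 12 each), so the granulosa mean rests on those libraries. The log2 difference was -8.30 (SE 1.04, edgeR adjusted p = 8.52e-07). It was -7.17 without granulosa small 2 and -7.19 without granulosa medium 2. By size it was -10.31, -7.57 and -7.02 in small, medium and large follicles. In TPM it was at 59.4 to 42048 in granulosa cells (median 1287), at 2092 to 10240 in the 11 cumulus libraries (median 5147) and at 6.85 to 49.7 in oocytes (median 30.3).

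ENSMMUT00000091810.1, of 1065 bases, had 0.269 to 101.1 CPM in oocytes (median 49.2) and 211.7 to 4698 CPM in granulosa cells (median 1274). The means were 51.4 ± 36.7 and 1759 ± 1629 CPM (SD, n = 12 each), a log2 difference of -5.10 (SE 0.84, edgeR adjusted p = 2.46e-05). The difference was -5.14, -5.45 and -4.72 in small, medium and large follicles. Its values followed the number in the title. Granulosa libraries numbered 2 or 3 had 2072 to 4698 CPM in all sizes and those numbered 1 or 4 had 211.7 to 476.9 CPM. Oocyte libraries numbered 4 were the lowest of their cell type in each size, at 0.269 to 5.69 CPM. The SE and adjusted p above treat the 12 libraries of a cell type as independent and may overstate the precision for this transcript.

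**Figure D3:**
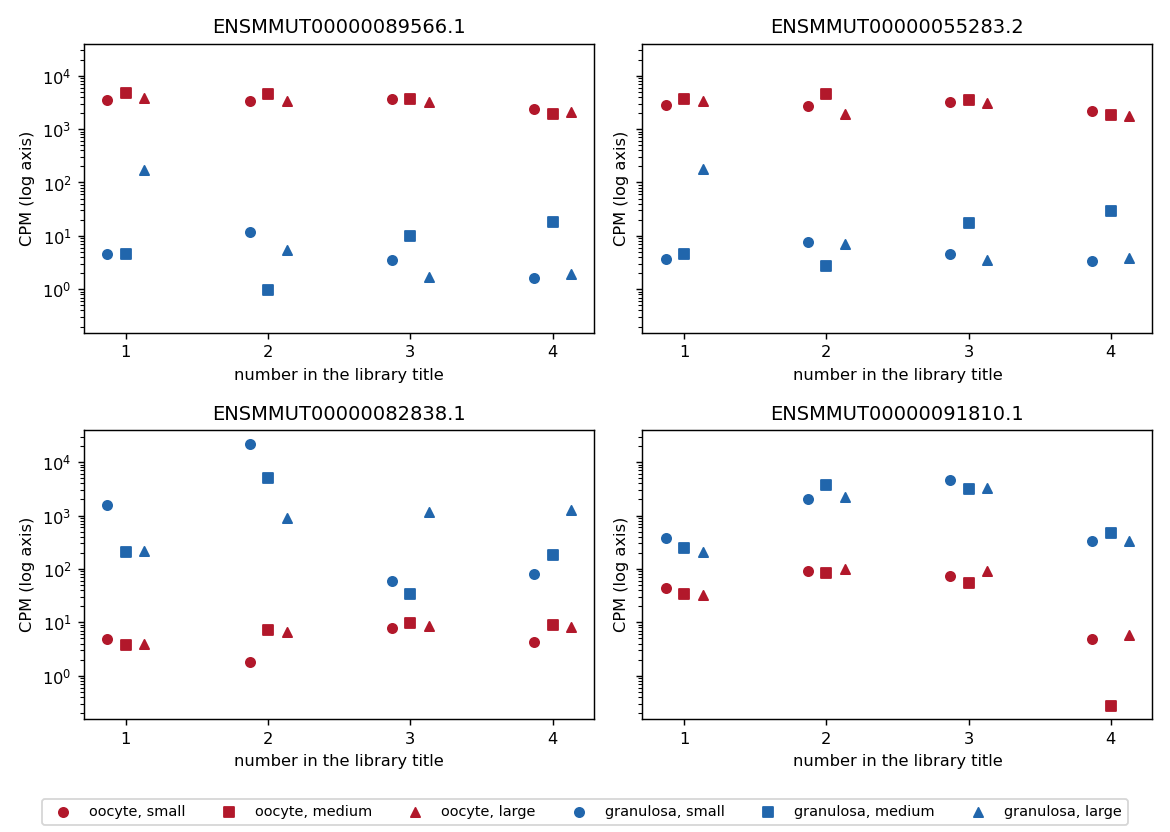
CPM on a log axis of the 4 transcripts in every library, by the number in the library title, with oocytes in red, granulosa cells in blue and the follicle size as the marker. The cell types do not overlap in any panel, the granulosa large library of number 1 stands out in both upper panels at 170.9 and 181.4 CPM, and in the lower right panel granulosa libraries of numbers 2 and 3 lie above those of numbers 1 and 4 in each size.

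Within a size, the contrast called 13430 transcripts (39.0%) in small follicles, 6909 higher and 6521 lower in oocytes. In medium follicles it called 12564 (36.5%), 6447 higher and 6117 lower, and in large follicles 12557 (36.5%), 6635 higher and 5922 lower. All 3 came from the fit on 24 libraries, with 4 libraries against 4 in each. Each size had fewer calls than the average, which rests on more libraries.

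The calls of the average were then read in each size. Of the 10515 transcripts higher in oocytes on average, 10391 (98.8%) had a difference above 0 in all sizes, 5128 were called in 3 sizes, 1336 in 2, 1795 in 1 and 2256 in none. Of the 11917 lower ones, 11655 (97.8%) had a difference below 0 in all sizes, and 3735, 2138, 2850 and 3194 were called in 3, 2, 1 and none. None of either set was called in the opposite direction in any size. The average is made of the sizes, so these counts describe it and are no separate evidence. Outside these sets, 14 of the 34410 transcripts were called higher in 1 size and lower in another.

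Fits on the 8 libraries of 1 size share no library and are a stricter reading. They are not fully independent of each other, since libraries with the same number deviated together across sizes in part. Called were 11192 of 27835 transcripts in small, 10925 of 27119 in medium and 8989 of 27208 in large follicles. With the title number as a block these fits called 8275, 8484 and 5712, so the count in large follicles was 12557 in the fit on 24 libraries, 8989 in its own 8 libraries and 5712 with the block. Of the 24765 transcripts tested in all of these fits, 21208 (85.6%) had the same direction in each. A transcript low in 1 cell type passes the filter on low counts of each fit through the other. Shares of these 24765 are thus partly set by that filter and are no support. In every fit 6358 (25.7%) were called, 3764 of them higher and 2594 lower in oocytes each time. A further 3220 were called in exactly 2 fits and 3745 in exactly 1. No transcript was called higher in 1 of these fits and lower in another.

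**Figure D4:**
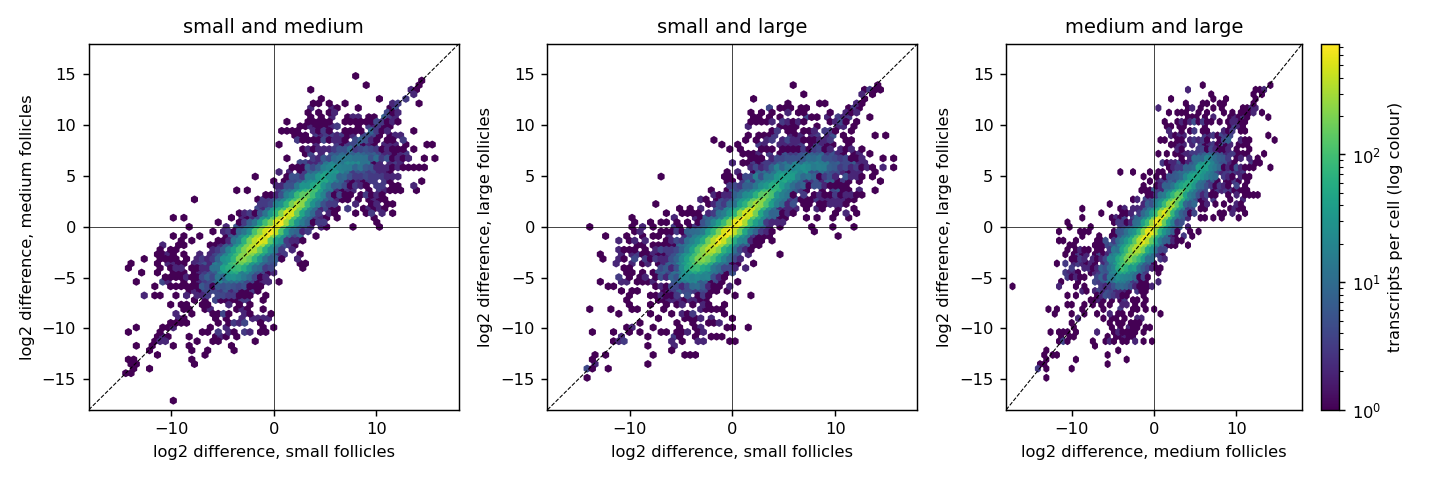
Log2 difference, oocyte over granulosa, in each pair of follicle sizes for the 24765 transcripts tested in all of the fits on 8 libraries of 1 size, with colour giving the number of transcripts per cell of the grid on a log scale. The dashed line marks equal differences. Most transcripts lie near it, and 85.6% have the same direction in the 3 sizes, a share partly set by the filter on low counts.

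Transcripts were also chosen in the 16 libraries of 2 sizes, as called and over 4-fold, and read in the 8 libraries of the third size. The third size is not a fully independent repeat, since libraries with the same number deviated together across sizes in part. A transcript can be chosen up to 3 times in this count. Of 37423 choices, 36759 (98.2%) had a mean CPM on the same side in the third size, 575 on the opposite side, and 89 had no count there. This reading used no filter on low counts in the third size and was added after seeing the data. Over all transcripts tested in the 16 libraries, 46.3 to 48.0% had the higher mean in oocytes in the third size. The edgeR test in the third size could read 30404 of the choices. The other 7019 failed its filter on low counts, and a transcript low in 1 cell type passes that filter through the other, so shares among the 30404 are no support. Of all 37423 choices, 21328 (57.0%) were called in the same direction and 3 in the opposite one. Of those chosen as higher in oocytes, 67.2% were called in small, 65.0% in medium and 57.7% in large follicles. Of those chosen as lower, 54.7%, 52.5% and 45.5% were called. Among all transcripts that passed the filter in the third size, chosen or not, 40.2%, 40.3% and 33.0% were called in either direction.

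The combined level of such transcripts separated the cell types in every size. Taking those over 16-fold with a mean of at least 10 CPM in the higher cell type, chosen in the other sizes, gave 1015 to 1122 oocyte transcripts and 421 to 516 granulosa transcripts, depending on the size left out. The oocyte set held 12.5 ± 2.78% of oocyte counts (SD, n = 12; 5.90 to 15.4%) and 0.228 ± 0.180% of granulosa counts (SD, n = 12; 0.11 to 0.689%). Oocyte medium 2 was the lowest oocyte library. Granulosa large 1 at 0.689% and granulosa medium 4 at 0.497% were the highest granulosa libraries, and the other 10 held 0.154 ± 0.0425% (SD; 0.11 to 0.229%). The granulosa set held 3.37 ± 1.42% of granulosa counts (1.87 to 5.62%) and 0.196 ± 0.0865% of oocyte counts (0.0831 to 0.347%). In the 11 cumulus libraries the oocyte set held 0.169 to 0.857% and the granulosa set 1.79 to 3.82%.

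**Figure D5:**
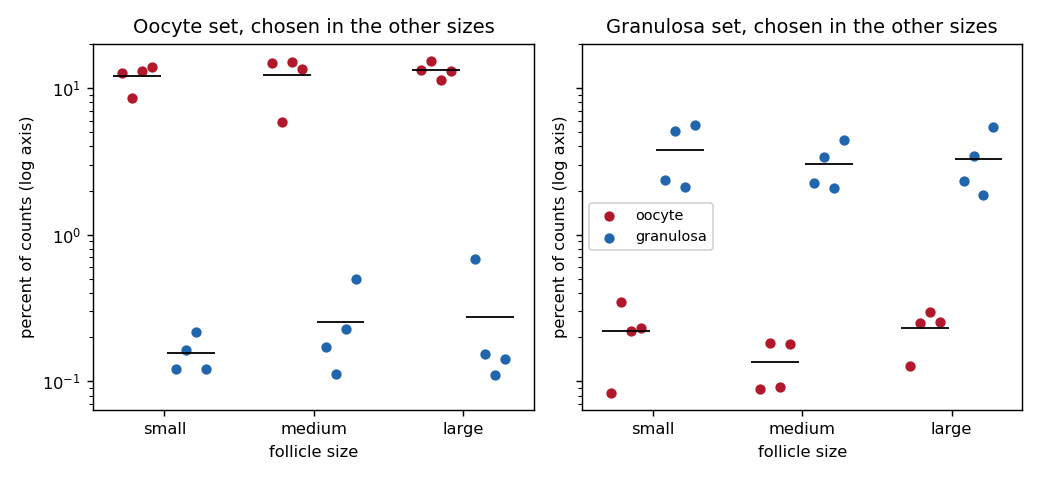
Percent of counts, on a log axis, in transcripts chosen in the other sizes as over 16-fold higher in oocytes (left) or in granulosa cells (right), for each oocyte (red) and granulosa (blue) library, with the group mean as a bar. The cell types do not overlap in either panel, and the granulosa libraries highest in the left panel are large 1 at 0.689% and medium 4 at 0.497%.

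Whether the contrast itself differed between sizes was tested as an interaction. With edgeR's quasi-likelihood test over 2 degrees of freedom, no transcript of 34410 was called (0.0%), with 1530 at an unadjusted p under 0.05 and a lowest adjusted p of 0.0519. DESeq2's likelihood ratio test called 31, limma voom with sample weights called 0. Taken as pairs of sizes, edgeR called 0 for medium minus small (1346 at an unadjusted p under 0.05) and 1 each (0.00291%) for large minus small and large minus medium. DESeq2 called 362, 499 and 408. These counts depend on the tool and say nothing of sizes being alike, given the wide intervals above.

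The 1 transcript called for both of the latter pairs was ENSMMUT00000060081.2, of 1840 bases, described after its values were seen. In large follicles all 4 oocyte libraries had 0 counts and the granulosa libraries had 1.63 to 5.05 CPM. In small follicles the oocyte libraries had 0.41 to 1.17 CPM and in medium follicles 0.386 to 1.04 CPM, against 1.41 to 6.32 and 1.51 to 3.14 CPM in granulosa cells. Oocytes were thus lower than granulosa cells in every size. Against a floor of 3 counts over the 4 oocyte libraries, 0.0233 CPM, granulosa cells were at least 143-fold higher in large follicles, and the fitted log2 differences in small and medium were -2.35 and -1.97. The adjusted p of large minus small was 0.0463 and of large minus medium 0.0260 (edgeR quasi-likelihood test). Both calls were lost with the title number as a replicate block, where the lowest adjusted p over all transcripts was 0.133 and 0.0908, with library totals alone (0.224 and 0.126) and without granulosa medium 4 and large 1 (0.176 and 0.0836). With RLE size factors large minus small was lost (0.0533). When each of 24 libraries was left out in turn, no transcript was called for large minus small in 18 of the fits and for large minus medium in 9. Its counts were not whole, so that a 0 may come from the division of shared reads among transcripts.

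Few transcripts met a strict rule for presence in only 1 of the cell types. With 0 counts in all 12 granulosa libraries and at least 10 in each oocyte library, 47 of 49537 transcripts were detected in oocytes alone. Their mean levels were 0.819 to 82.4 CPM (median 5.86). Of these, 19 had 0 counts in the 11 cumulus libraries too. The reverse pattern was found in 16 transcripts, at 2.06 to 65.9 CPM (median 8.64), and 13 of them had counts in every cumulus library. The floor of 3 counts over a group was 0.00854 CPM in granulosa cells and 0.00865 CPM in oocytes. The CPM of this paragraph use library totals without the TMM factors. Of the 47 and the 16, 3 and 1 had whole counts in every library. The first count rests on few libraries: it was 79 without granulosa large 1 and 123 without granulosa medium 4 and large 1, where the second was 23.

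Within each cell type, the spread between libraries of a group was alike. The common biological coefficient of variation was 0.995 in oocytes and 0.997 in granulosa cells, and the median SD of a transcript between the 4 libraries of a group was 0.93 and 0.97 on the log2 scale.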

How the data were processed

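RNA of 12 oocyte and 12 granulosa libraries was extracted (PicoPure) and amplified (Ovation RNA-Seq System v2) before sequencing, per the labels' protocols. Per the submitters' processing notes, bcl2fastq 2.19.1 converted the reads and kallisto 0.44.0 assigned them to transcripts. Neither genome build nor annotation was given in the sources used here. The deposited estimated counts share a read among the transcripts it fits, per the file headers. The deposited TPM, scaled by effective length and library total by the authors per the file headers, were used only to compare levels between transcripts and for cumulus cells. Transcript lengths were identical in all 35 tables. Among 49537 transcripts, 9324 had whole counts in all 24 libraries within 1e-06, 5887 of these with at least 1 count.

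Counts were rounded and tested with edgeR 4.0.16 in R 4.3.3 (quasi-likelihood, robust fit, TMM, default filter with a minimum count of 10, Benjamini-Hochberg, adjusted p under 0.05) on 24 libraries in 6 groups. The contrast averaged the 3 sizes, and each size and their differences were contrasts of the same fit. The design had allowed for tests per gene, which the IDs could not be joined to. CPM are counts scaled to TMM-adjusted library totals, and to unadjusted totals for transcripts detected in 1 cell type only and their floor. Library measures were compared by two-sided permutation tests. Alternatives were other scalings (size factors by RLE, library totals), filters, tools (DESeq2 1.42.0, limma 3.58.1), the title number as a block, fits on 8 or 35 libraries, whole counts only, and leaving out libraries. The named transcripts were the 2 per direction with the largest difference in mean CPM among those called over 16-fold, called in the same direction in each size, without overlap. The tests were checked on simulated data with 200 changed transcripts, 50 at each fold. The averaged contrast recovered 4% of 2-fold, 38% of 4-fold, 54% of 8-fold and 80% of 16-fold changes. In small follicles the shares were 2%, 8%, 28% and 50%. Of unchanged transcripts 0.0153% and 0.00306% were called. Far fewer transcripts were changed there than were called in the data, so these shares do not carry over directly. The libraries, rules and lists were chosen with earlier results of these data known. The unfiltered reading of the third size, the summed counts, the fit without 3 libraries, the totals without the 2 most abundant transcripts and the tests between numbers were chosen after seeing the data.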

Additional observations from a re-analysis of the deposited data

Results flagged for a closer look

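In 12 of 96 groups of 4 libraries (12.5%) 1 library lay far from the other 3, the gap to its nearest neighbour, as a share of the group's range, being above Dixon's 95% critical value. Chance gives about 1 in 20 such groups only where values are normally spread, which was not tested for these counts and CPM. The named transcripts were chosen for large differences of mean CPM, and the measures of 1 library are not independent of each other. The share of groups is thus a description and no test.

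Oocyte medium 2 accounted for 6 of them. It had 52350330 total counts, against 24639350 to 26405378 in the other oocyte medium libraries. Its top transcript held 44.8% of counts (9.19 to 10.04% in the others), its top 10 held 68.3% (32.9 to 35.4%) and its top 100 held 75.2% (44.6 to 48.1%). Transcripts over 5000 bases held 6.495% of its counts (13.7 to 14.8%), and the oocyte set chosen in the other sizes held 5.90% (13.5 to 15.0%).

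Granulosa large 1 accounted for 3. The oocyte set held 0.689% of its counts, against 0.11 to 0.154% in the other granulosa large libraries. ENSMMUT00000089566.1 was at 170.9 CPM (1.68 to 5.43 CPM in the others) and ENSMMUT00000055283.2 at 181.4 CPM (3.56 to 6.95 CPM). Both transcripts were among those high in oocytes, and part of the set's share.

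The other 3 were in granulosa libraries. ENSMMUT00000082838.1 was at 22336 CPM in granulosa small 2 (59.4 to 1573 CPM in the others) and at 5132 CPM in granulosa medium 2 (34.5 to 205.6 CPM). Transcripts over 5000 bases held 6.66% of the counts of granulosa large 3 (10.1 to 10.7%). The cause of these values was not tested.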

How the results depend on the processing

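The averaged contrast called 17029 to 24572 transcripts under 37 alternatives, and the 4 named transcripts kept their direction and their call in all 37. Log2 differences ran from 7.28 to 9.75 for ENSMMUT00000089566.1, from 6.87 to 9.12 for ENSMMUT00000055283.2, from -8.69 to -6.20 for ENSMMUT00000082838.1 and from -5.76 to -4.47 for ENSMMUT00000091810.1. With whole counts only, where 3151 transcripts were tested, 2553 were called on average, 1703 of them over 4-fold, and 2014, 2036 and 1961 in small, medium and large follicles. Against 4-fold directly, glmTreat called 9124.

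The deviations of oocyte and granulosa libraries were only weakly related by number. Over 12 pairs of the same size and number the correlation was 0.0033 to 0.0646 (median 0.0233), against a median of -0.0118 for other numbers. Across sizes the medians were 0.0378 and -0.0116. Every pair was under the 0.1 set for treating numbers as pairs. With the title number as a replicate block the average called 22256, and with 12 pairs as blocks 19918. In the 8 libraries of a size with the block, 8275 were called in small, 8484 in medium and 5712 in large follicles. The cause was not tested.

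The difference between sizes called 0 under 24 of 35 alternatives, 1 with a minimum count of 50, 1 with 35 libraries, 1 without oocyte medium 2, granulosa medium 4 and large 1, 31 with DESeq2, and 0 to 3 with 1 library left out (3 without granulosa small 2 or granulosa medium 1, and 2 without granulosa small 1, granulosa small 4 or oocyte large 4). Of transcripts chosen in 2 sizes that passed the filter in the third, 99.2% lay on the same side there, a share partly set by that filter. It was 98.83% for those chosen at 16-fold and 98.2% of all those chosen at 4-fold with no filter. With at least 50 counts required, 23 transcripts were detected in oocytes only and 10 in granulosa cells only. Without granulosa medium 4 and large 1 the first count was 123. Without those and oocyte medium 2 the counts were 129 and 31. Leaving out 1 library gave 47 to 79 in oocytes only, the most without granulosa large 1. Each of the 10 library measures kept its side of the threshold under 27 alternatives. At this depth a count of 0 in all 12 libraries of a cell type allows, by counting error alone, a level of up to 0.00854 to 0.00865 CPM. Amplification and the division of shared reads can make this bound too low.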

Other observations

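The number in the title went with expression within a cell type. In a fit with number and size as terms, tested after this was noticed, the number was called for 2294 of 34410 transcripts (6.67%) within granulosa libraries and for 216 (0.628%) within oocyte libraries (edgeR quasi-likelihood test, Benjamini-Hochberg adjusted p under 0.05). Of these, 69 were called in both. The oocyte-granulosa contrast differed between numbers in 527 transcripts (1.53%). For ENSMMUT00000091810.1, high in granulosa libraries 2 and 3 of each size, the edgeR adjusted p was 0.00322 within granulosa cells, 0.0132 within oocytes and 0.0695 for the difference. The labels do not say what a number stands for.

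Oocyte and granulosa libraries were set beside the 11 cumulus libraries in the transcripts called higher or lower on average, a description since those calls used the same oocyte and granulosa libraries. The 10515 higher transcripts held 65.4 ± 4.54% of oocyte counts, 13.1 ± 5.54% of granulosa counts (SD, n = 12 each) and 23.6 to 32.1% of cumulus counts. The 11917 lower ones held 21.98 ± 3.52%, 76.7 ± 7.72% and 51.5 to 61.7%. Cumulus libraries thus lay between the others in both of these classes. Among calls over 16-fold the cumulus libraries overlapped the granulosa libraries instead. The 3470 higher transcripts held 0.2096 to 0.9132% of cumulus counts, 0.1045 to 0.7202% of granulosa counts and 6.097 to 16.56% of oocyte counts. The 2524 lower ones held 2.33 to 4.057%, 2.194 to 5.997% and 0.09294 to 0.3084%.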
